A study of Mus musculus with 8 samples.

Results

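The ErbB and FGF receptors are cell surface proteins that carry growth factor signals into the cell. The group described here held 9 genes, taken by symbol from a table of counts for 23100 genes: the 4 ErbB receptors Egfr, Erbb2, Erbb3 and Erbb4, and the 5 FGF receptors Fgfr1, Fgfr2, Fgfr3, Fgfr4 and Fgfrl1. All 9 were in the table. They were measured in Min6, a line from a mouse insulinoma that keeps many traits of beta cells, 16 h after lipid-mediated transfection. In 4 libraries the plasmid was pRK5-Zac1, which expresses Zac1, a transcription factor with zinc fingers whose gene, Plagl1, is imprinted. In the 4 control libraries it was pRK5-NLSeGFP, which expresses a nuclear green fluorescent protein. The comparison addresses which genes respond to Zac1. Libraries are numbered 1, 2, 3 and 5 in both groups. The design text calls them biological replicates, but nothing used here says that they came from separate cultures, so the p-values measure the spread between these libraries.

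ErbB receptors bind ligands of the EGF and neuregulin families, form dimers and phosphorylate tyrosines on each other. ErbB2 has no known ligand of its own and acts as the preferred dimer partner of the other members, while ErbB3 has little kinase activity and signals through its partners. Fgfr1 to Fgfr4 bind fibroblast growth factors together with heparan sulfate or Klotho coreceptors and signal through the adaptor Frs2 to Ras and MAP kinase. Fgfrl1 has an FGF-binding extracellular part but lacks the tyrosine kinase domain. In the pancreas, EGF and FGF signals are known for their part in the growth of the organ and in the formation and upkeep of beta cells.

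Zac1 is known to bind GC-rich DNA, including the palindrome GGGGCCCC, so the promoters of the receptors that rose with Zac1 (Erbb2, Fgfr3 and Fgfrl1) are shown with that of Fgfr4, which did not pass the test. Each runs 5′ to 3′ on the gene's strand from 250 bases before the RefSeq start to 50 after it, on GRCm38.p6, which is not the mm9 build of the counts. Capitals mark GGGGC on either strand, and the palindrome, which holds GGGGC on both strands. Erbb2 lies at chr11:98412234-98412533, Fgfr3 at chr5:33721474-33721773 for its first listed start and chr5:33722056-33722355 for its second, Fgfr4 at chr13:55152568-55152867 and Fgfrl1 at chr5:108693979-108694278, all on the + strand.
Erbb2: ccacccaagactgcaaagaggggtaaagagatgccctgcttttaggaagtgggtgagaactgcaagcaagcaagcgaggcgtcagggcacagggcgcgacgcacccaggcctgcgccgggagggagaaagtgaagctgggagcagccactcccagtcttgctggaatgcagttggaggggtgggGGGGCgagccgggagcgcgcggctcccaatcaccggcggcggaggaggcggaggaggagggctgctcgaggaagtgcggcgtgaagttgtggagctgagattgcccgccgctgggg
Fgfr3, first start: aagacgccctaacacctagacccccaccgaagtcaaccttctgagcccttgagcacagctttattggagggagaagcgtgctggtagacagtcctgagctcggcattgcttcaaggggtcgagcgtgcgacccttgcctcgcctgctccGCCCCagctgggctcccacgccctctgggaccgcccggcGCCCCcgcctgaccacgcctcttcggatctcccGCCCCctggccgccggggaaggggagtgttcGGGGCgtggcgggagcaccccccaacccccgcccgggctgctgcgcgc
Fgfr3, second start: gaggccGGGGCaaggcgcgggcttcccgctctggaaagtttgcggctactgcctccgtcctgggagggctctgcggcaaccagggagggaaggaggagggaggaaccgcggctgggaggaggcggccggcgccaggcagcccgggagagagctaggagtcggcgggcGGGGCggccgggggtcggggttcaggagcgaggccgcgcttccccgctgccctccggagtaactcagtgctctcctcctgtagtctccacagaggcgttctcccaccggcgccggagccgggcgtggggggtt
Fgfrl1: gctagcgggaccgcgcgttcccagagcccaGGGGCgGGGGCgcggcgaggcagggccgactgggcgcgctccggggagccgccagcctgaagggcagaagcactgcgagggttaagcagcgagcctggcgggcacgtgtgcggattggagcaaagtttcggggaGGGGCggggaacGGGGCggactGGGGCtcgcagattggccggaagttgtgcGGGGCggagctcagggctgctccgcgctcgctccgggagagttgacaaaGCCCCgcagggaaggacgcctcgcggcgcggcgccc
Fgfr4: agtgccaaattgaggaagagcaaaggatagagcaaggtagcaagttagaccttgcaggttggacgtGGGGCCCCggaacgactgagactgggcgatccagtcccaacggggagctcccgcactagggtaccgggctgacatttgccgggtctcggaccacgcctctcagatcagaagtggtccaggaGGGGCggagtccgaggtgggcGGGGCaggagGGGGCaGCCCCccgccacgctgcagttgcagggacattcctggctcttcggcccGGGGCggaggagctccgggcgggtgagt

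The letters GGGGCCCC were found once among these sequences, in Fgfr4, at position -184 from the start. They are in 1.08% of all 32851 promoter windows of this length and in 1.52% of the 14388 windows of tested genes. The promoters of Erbb2, Fgfr3 and Fgfrl1 did not hold them, and neither did those of Egfr, Erbb4 and Fgfr2. The table gave no entry for Erbb3 and Fgfr1. GGGGC occurred 7 times in the Fgfrl1 promoter, 7 times in that of Fgfr4, 4 times and 2 times in those of Fgfr3, 1 time in Erbb2, 2 times in Egfr and not at all in Erbb4 and Fgfr2. All promoter windows held it with a median of 1, and 60.8% had at least 1, against 78.5% of the windows of tested genes. The matches describe letters in a window and are no measure of binding.

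Library totals ran from 30.5 to 42.4 M counts, and 14331 genes passed the filter on low counts. Plagl1 stood at 77.8 ± 7.38 CPM (SD, n = 4) in the control libraries and 4630 ± 778 CPM (SD, n = 4) in the Zac1 libraries, where CPM are counts per M counts of the library with TMM-scaled totals. All 10 beta cell markers were measured and tested, with a summed level of 57900 to 74300 CPM in the control and 60300 to 67600 CPM in the Zac1 libraries. The summed levels of 8 fibroblast markers were 3.31 to 5.73 CPM in the controls and 4.16 to 4.35 CPM with Zac1, those of 6 endothelial markers 1.51 to 2.03 and 1.22 to 2.11 CPM, and those of 6 leukocyte markers 5.88 to 6.70 and 4.94 to 7.26 CPM. Markers of pancreatic duct summed to 152 to 193 CPM in the controls and 133 to 184 CPM with Zac1, and those of glia to 94.4 to 103 and 87.0 to 104 CPM. The highest single marker was Krt7 in the duct sum and Mbp in the glia sum, so these sums do not show that each list was expressed. In the beta cell sum it was Ins2. Ins1 and Ins2 together held 3.82% to 5.47% of the counts of a library, so that sum does not give the level of the other beta cell markers. Lum of fibroblasts and Cdh5 of endothelium had 0 counts in all 8 libraries. Besides the beta cell markers, edgeR could test 5 of 8 duct, 3 of 8 fibroblast, 2 of 6 glia, 1 of 6 endothelial and 1 of 6 leukocyte markers. None of those tested was called by edgeR, DESeq2 or limma-voom, and edgeR gave 0 of them an unadjusted p under 0.05, while DESeq2, which tested all 6 glia markers, gave it to 1 of these.

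Of the 9 receptors, 3 were higher in the Zac1 libraries by edgeR's quasi-likelihood test with Benjamini-Hochberg adjustment over all tested genes: Erbb2, Fgfr3 and Fgfrl1. None was called lower, in edgeR, DESeq2 or limma-voom, and the same 3 receptors were those with an unadjusted p under 0.05. Over all tested genes 2.15% were called higher, 0.0349% lower and 2.18% in either direction, and 7.58% had an unadjusted p under 0.05. The genes called lower numbered 5, and 1 to 5 without any 1 library, with 1 left without control library 3. The other 6 receptors did not pass, and 1 of them, Erbb4, had too few counts to be tested. The receptors with the highest levels per length, Fgfr2, Egfr and Fgfr1, were among those that did not pass. The groups did not overlap for Erbb2, Fgfr3 and Fgfrl1, against 5.79% of all tested genes in which the groups did not overlap. In these bulk libraries a change in every cell and a larger change in the transfected share of the cells cannot be told apart.

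**Figure D1:**
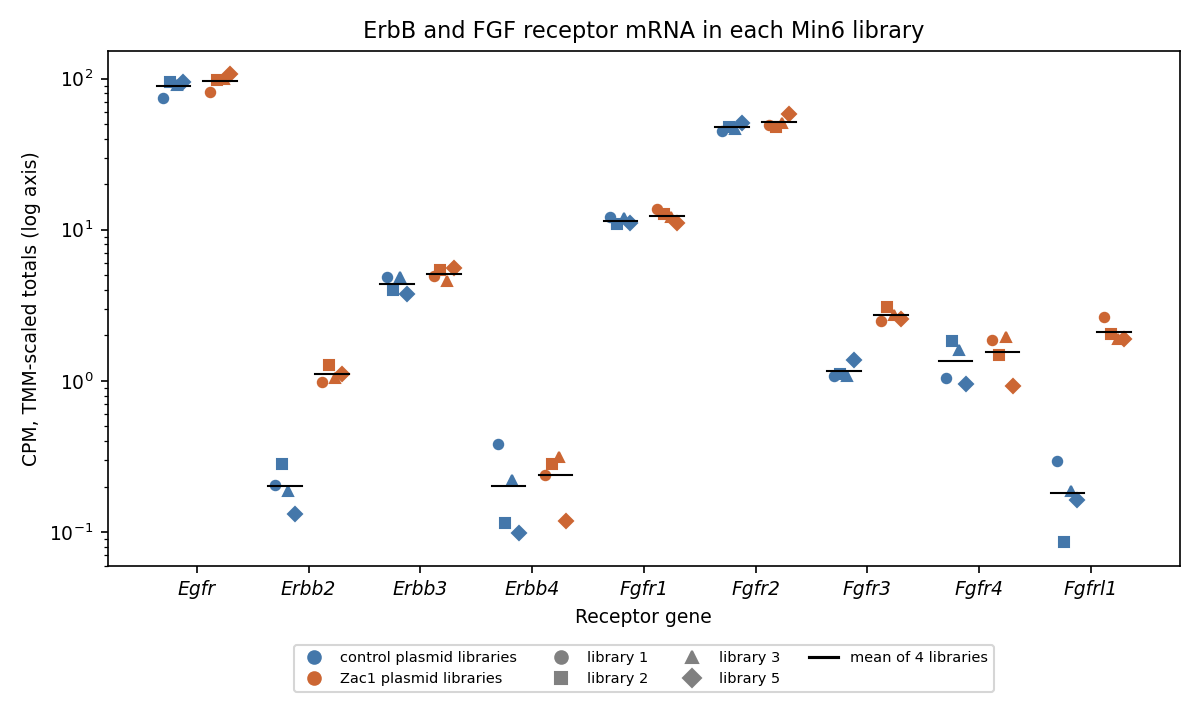
CPM on a log axis for the 9 receptor genes in each of the 8 libraries, with control libraries in blue, Zac1 libraries in orange, a symbol for each library number and a bar at the mean of 4 libraries. The orange and blue points are apart for Erbb2, Fgfr3 and Fgfrl1 and overlap for the other 6 receptors.

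Among the ErbB receptors, Erbb2 was the one called. It had 7, 10, 6 and 4 counts in control libraries 1, 2, 3 and 5, which are 0.205, 0.284, 0.188 and 0.131 CPM. In Zac1 libraries 1, 2, 3 and 5 it had 41, 45, 43 and 47 counts, or 0.980, 1.28, 1.04 and 1.11 CPM. Every Zac1 library lay above the highest control library, number 2, and the 4 Zac1 libraries were close together. The mean rose from 0.202 ± 0.0633 to 1.10 ± 0.129 CPM (SD, n = 4), a log2 fold change of 2.41 ± 0.27 (SE; 95% interval 1.82 to 2.99; edgeR adjusted p = 8.83e-05). With 27 control counts in all, counting error alone gives the pooled ratio of 5.34 an interval of 3.55 to 8.33. On the log scale that is wider than the edgeR interval, which is therefore too narrow here. No control library reached the 0.287 CPM of the filter, so Erbb2 was tested because of its level with Zac1. In the GENCODE M21 annotation, which is on another build, 1 of 3 Erbb2 transcripts overlaps the neighbouring gene Mien1 on the opposite strand. This overlap, at the 3′ end, is 9 bases.

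Egfr, the receptor of EGF and TGF-alpha, was far more abundant and showed no called change. It stood at 74.8, 95.4, 90.3 and 95.6 CPM in control libraries 1, 2, 3 and 5 and at 81.9, 97.9, 99.8 and 107 CPM in the Zac1 libraries of the same numbers. The groups overlapped, and library 1 was the lowest in both. The log2 fold change was 0.12 ± 0.09 (SE; 95% interval -0.08 to 0.32; edgeR adjusted p = 0.913). Erbb3, a neuregulin receptor, stood at 4.86, 3.98, 4.90 and 3.73 CPM in the controls and at 4.97, 5.42, 4.58 and 5.56 CPM with Zac1, in the order 1, 2, 3 and 5. Only Zac1 library 3 lay within the control range, and the log2 fold change of 0.23 ± 0.12 (SE; 95% interval -0.03 to 0.49) did not pass (edgeR adjusted p = 0.754). Erbb4, the other neuregulin receptor, was near the limit of detection, at 13, 4, 7 and 3 counts in the controls and 10, 10, 13 and 5 counts with Zac1. The pooled levels had a ratio of 1.15 (counting interval 0.686 to 1.96). That interval includes 1, but it covers counting error only and not the spread between libraries, so it does not bound the change. DESeq2, which tested Erbb4, gave a log2 fold change of 0.22 ± 0.61 (SE) and made no call.

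Among the FGF receptors, Fgfrl1 had the largest fold change of the 8 tested receptors. Its control libraries 1, 2, 3 and 5 held 10, 3, 6 and 5 counts, or 0.293, 0.0853, 0.188 and 0.164 CPM, and its Zac1 libraries 110, 72, 79 and 80 counts, or 2.63, 2.04, 1.90 and 1.89 CPM. Library 1 was the highest in both groups, and the groups lay far apart. The mean rose from 0.182 ± 0.0856 to 2.12 ± 0.349 CPM (SD, n = 4), a log2 fold change of 3.51 ± 0.28 (SE; 95% interval 2.91 to 4.12; edgeR adjusted p = 3.37e-06). From 24 control counts the pooled ratio was 11.6, and counting error alone gives it an interval of 7.69 to 18.4. The edgeR interval is narrower than that on the log scale, so it is too narrow for this gene as well. As with Erbb2, the filter was passed through the Zac1 libraries, since 1 of the 4 control libraries reached its level. With no filter on low counts, both genes were still called (edgeR adjusted p = 4.52e-09 for Fgfrl1 and 5.74e-06 for Erbb2).

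Fgfr3, a receptor best known as a brake on bone growth, was called from a higher level. It had 1.08, 1.11, 1.07 and 1.37 CPM in control libraries 1, 2, 3 and 5 and 2.49, 3.09, 2.72 and 2.58 CPM in the Zac1 libraries. The controls were close together apart from the higher library 5, and each Zac1 library was above it. The mean rose from 1.16 ± 0.145 to 2.72 ± 0.267 CPM (SD, n = 4), a log2 fold change of 1.23 ± 0.16 (SE; 95% interval 0.89 to 1.57; edgeR adjusted p = 0.000253). All 4 control libraries and all 4 Zac1 libraries reached the filter level for Fgfr3, so its test did not depend on the Zac1 group. GENCODE M21 places a transcript of uncertain status, G630022F23Rik, against its exons on the opposite strand, and whether the counting used strand is not stated.

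Fgfr1 and Fgfr2, the FGF receptors with the highest levels per length here, did not pass. Fgfr2 stood at 44.7, 48.0, 46.6 and 50.8 CPM in control libraries 1, 2, 3 and 5 and at 49.0, 48.2, 51.0 and 58.1 CPM with Zac1, with library 5 highest in both groups (log2 0.12 ± 0.07, SE; 95% interval -0.02 to 0.26; edgeR adjusted p = 0.773). GENCODE M21 has 1 long transcript among the 27 of Fgfr2 that runs into Ctbp2 on the same strand, where the spans share 135788 bases. Ctbp2 is counted on its own in the table, with 2827 counts over the controls and 3665 over the Zac1 libraries. Fgfr1 was at 12.1, 10.9, 11.9 and 11.1 CPM in the controls and 13.7, 12.8, 12.1 and 11.0 CPM with Zac1 (log2 0.11 ± 0.09, SE; 95% interval -0.08 to 0.29; edgeR adjusted p = 0.925). An antisense gene, Gm16159, is annotated against its exons. For Fgfr1, Fgfr2, Egfr, Erbb3 and Fgfr4 the upper bounds of the intervals lay below the lower bound of the Fgfr3 interval. Fgfr4 was the most variable of the kinase receptors of FGF, at 1.05, 1.85, 1.60 and 0.949 CPM in control libraries 1, 2, 3 and 5 and 1.87, 1.48, 1.95 and 0.922 CPM with Zac1. Library 5 was the lowest in both groups. Its interval was correspondingly wide (log2 0.18 ± 0.26, SE; 95% interval -0.38 to 0.75; edgeR adjusted p = 0.963).

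**Figure D2:**
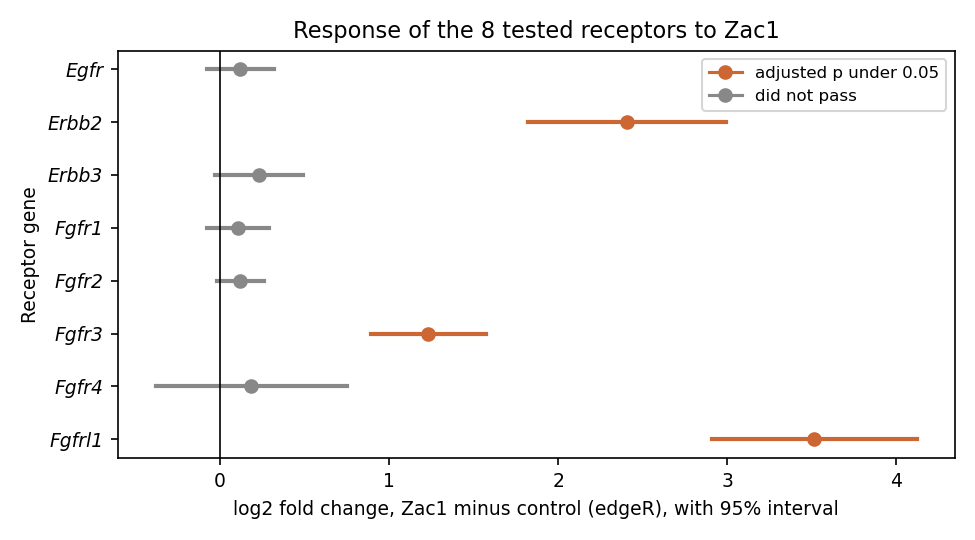
Fitted log2 fold change (Zac1 minus control, edgeR) of the 8 tested receptors with 95% intervals, orange where the adjusted p passed 0.05 and grey where it did not. The intervals of Erbb2, Fgfr3 and Fgfrl1 start at 1.82, 0.89 and 2.91, and those of the other 5 include 0. For Erbb2 and Fgfrl1 they are narrower than counting error alone gives.

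Levels of different receptors were compared per kb of exon, with exon lengths from GENCODE M21. In the control libraries Fgfr2 was highest at 9.29 ± 0.496 CPM per kb (SD, n = 4), followed by Egfr at 8.13 ± 0.896, Fgfr1 at 2.21 ± 0.111 and Erbb3 at 0.726 ± 0.0997. Lower levels were found for Fgfr4 (0.410 ± 0.130 CPM per kb), Fgfr3 (0.263 ± 0.0330), Fgfrl1 (0.0704 ± 0.0330), Erbb2 (0.0403 ± 0.0126) and Erbb4 (0.0168 ± 0.0108). Neighbours in this order overlapped between libraries for Fgfr4 and Fgfr3, for Fgfrl1 and Erbb2, and for Erbb2 and Erbb4. Fgfr2 and Egfr were separated by a narrow margin, with the lowest Fgfr2 library at 8.75 and the highest Egfr library at 8.72 CPM per kb.

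With Zac1 the order of the scarcer receptors differed. Fgfrl1 stood at 0.817 ± 0.135 CPM per kb (SD, n = 4), within the range of Erbb3 at 0.853 ± 0.0740 and above Fgfr3 at 0.618 ± 0.0606. It moved from rank 7 to rank 5 of the 9 receptors. Fgfr3 in turn overlapped Fgfr4 (0.467 ± 0.141 CPM per kb). Erbb2, at 0.220 ± 0.0257 CPM per kb, stayed at rank 8, but no longer overlapped Erbb4 at 0.0197 ± 0.00710. Fgfr2 and Egfr remained first and second, at 10.1 ± 0.883 and 8.81 ± 0.952 CPM per kb, and overlapped. When the exons of every annotated transcript were used instead, Egfr came before Fgfr2 in both groups, at 7.86 and 4.60 CPM per kb in the controls, and Fgfr4 came before Fgfr3 with Zac1.

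**Figure D3:**
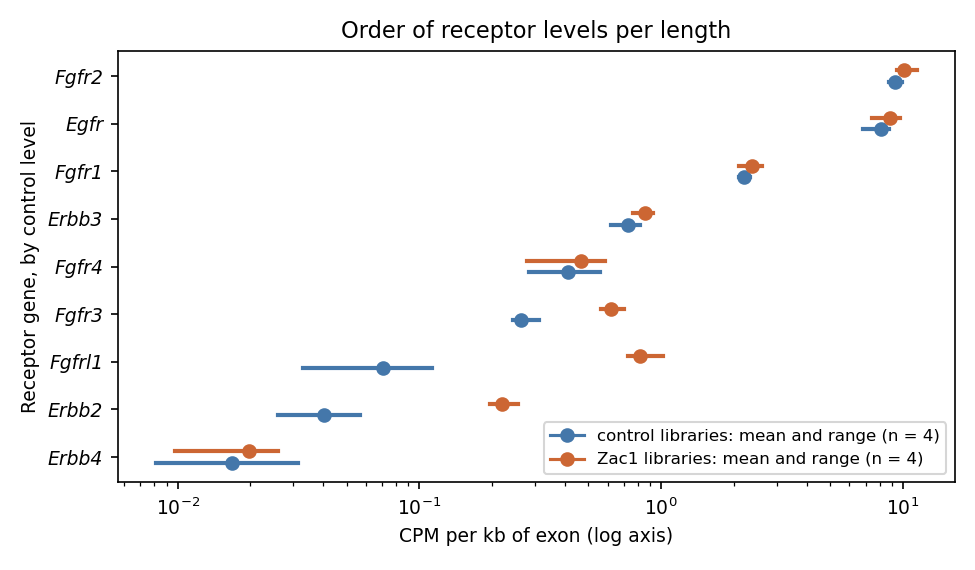
Level per kb of exon on a log axis for the 9 receptors, ordered by control level, with the mean (point) and the range over 4 libraries (line) of the control (blue) and Zac1 (orange) groups. Fgfrl1 shows the widest gap between groups, from 0.0704 to 0.817 CPM per kb, while Fgfr2 and Egfr stay at the top.

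Erbb2 and Fgfr3 held small shares of their families in both groups, and no share was computed for Fgfrl1. Summed over the 4 ErbB receptors the level was 93.8 ± 9.26 CPM in the controls and 103 ± 10.6 CPM with Zac1 (SD, n = 4), and the groups overlapped. Over Fgfr1 to Fgfr4 it was 61.6 ± 2.14 and 68.2 ± 3.03 CPM, at most 64.2 CPM in a control and at least 65.6 CPM in a Zac1 library. With Fgfrl1 added the sum was 61.8 ± 2.09 and 70.4 ± 2.91 CPM. Erbb2 made up 0.255%, 0.285%, 0.197% and 0.132% of ErbB receptor counts in control libraries 1, 2, 3 and 5, and 1.11%, 1.22%, 0.981% and 0.980% with Zac1. All Zac1 shares lay above all control shares. Erbb2 was picked for this test with earlier results of these data known, so its p-value is descriptive. The mean share was 0.217 ± 0.0678% in the controls and 1.07 ± 0.115% with Zac1, a difference of 0.855 percentage points (two-sided exact permutation p = 0.0286, the smallest that 70 assignments allow). The Wilson 95% intervals of single libraries, which cover counting error only, reached 0.526% at most in the controls and began at 0.729% with Zac1.

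The Fgfr3 share of Fgfr1 to Fgfr4 counts was 1.83%, 1.79%, 1.75% and 2.14% in control libraries 1, 2, 3 and 5 and 3.71%, 4.71%, 4.02% and 3.55% with Zac1. The groups were again apart, with means of 1.88 ± 0.179% and 4.00 ± 0.515% and a difference of 2.12 percentage points (two-sided exact permutation p = 0.0286, the smallest possible). Fgfr3 was picked in the same way, so the p-values of both shares describe the separation and add no support to the calls. These shares do not depend on the scaling of library totals. Per kb of exon, Erbb2 was 0.456 ± 0.141% of the ErbB total in the controls and 2.22 ± 0.229% with Zac1, where Egfr held 91.1 ± 1.99% and 88.9 ± 1.06% (SD, n = 4). On the same scale Fgfr2 held 76.3 ± 1.52% and 74.3 ± 3.41% of Fgfr1 to Fgfr4, and Fgfr3 2.16 ± 0.212% and 4.58 ± 0.583%.

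**Figure D4:**
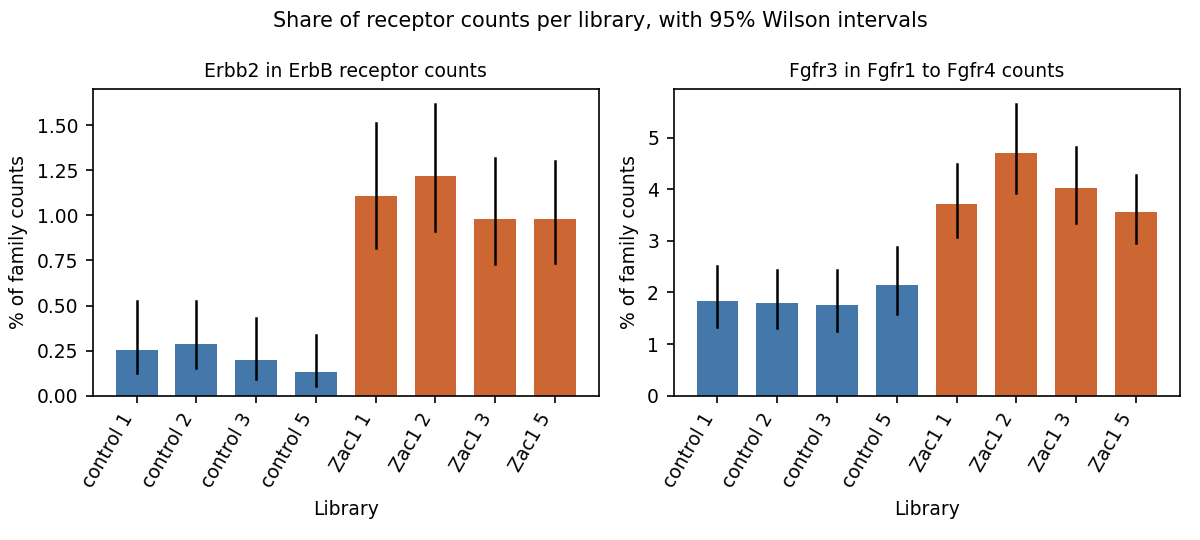
Percent of ErbB receptor counts that are Erbb2 (left) and of Fgfr1 to Fgfr4 counts that are Fgfr3 (right) in each library, with 95% Wilson intervals for counting error, control libraries in blue and Zac1 libraries in orange. In both panels every Zac1 bar is above every control bar, yet Erbb2 stays at or below 1.22% and Fgfr3 at or below 4.71% of its family.

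The ligands of these receptors showed no called change. Of 11 ErbB ligands edgeR and limma-voom tested 8 and DESeq2 tested 9. These tools called 0 of them, and each gave 1 an unadjusted p under 0.05. The median log2 fold change of the 8 in edgeR was 0.08, against -0.01 over all tested genes. Hbegf, the heparin-binding EGF-like factor, was the most abundant by CPM of the 3 with the smallest p, at 22.0 ± 2.07 CPM in the controls and 24.8 ± 1.60 CPM with Zac1 (log2 0.18 ± 0.08, SE; edgeR adjusted p = 0.584). Egf (log2 0.12 ± 0.12) and the neuregulin Nrg3 (0.12 ± 0.13) did not pass either. The ErbB ligands that edgeR did not test were Nrg2, with 9 counts over the controls and 31 over the Zac1 libraries, Ereg (0 and 3) and Epgn (0 and 2). Of 18 secreted FGFs only 5 were tested by edgeR, with a median log2 fold change of -0.26. None was called by edgeR, DESeq2 or limma-voom, and an unadjusted p under 0.05 was given to 1 by edgeR, 1 by DESeq2 and 2 by limma-voom. Fgf1, which binds all FGF receptors, stood at 138 ± 4.04 CPM in the controls and 128 ± 4.15 CPM with Zac1 (log2 -0.10 ± 0.05, SE; edgeR adjusted p = 0.602). Fgf7, at 0.610 ± 0.153 and 0.367 ± 0.217 CPM (log2 -0.76 ± 0.37), and Fgf9, at 6.65 ± 0.710 and 7.56 ± 1.08 CPM (log2 0.19 ± 0.12), had wider errors. Fgf18 had the most counts of the secreted FGFs that edgeR did not test, with 21 over the controls and 53 over the Zac1 libraries. The intracellular FGF homologous factors, which do not act through these receptors, had 0 of 3 tested members called by edgeR and by limma-voom. DESeq2 called 0 of 4, and each tool gave 0 an unadjusted p under 0.05. Those tested by edgeR were Fgf12 (log2 -0.04 ± 0.07), Fgf13 (0.45 ± 0.29) and Fgf14 (0.04 ± 0.07).

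Among FGF coreceptors and receptor partners 1 of 6 tested members was called. Flrt1, a leucine-rich membrane protein of a family that interacts with FGF receptors, had 4.83, 6.11, 7.35 and 7.17 CPM in control libraries 1, 2, 3 and 5 and 12.7, 12.8, 14.3 and 12.5 CPM with Zac1. The groups were well apart, and the mean rose from 6.36 ± 1.16 to 13.1 ± 0.841 CPM (SD, n = 4; log2 1.04 ± 0.12, SE; edgeR adjusted p = 8.5e-05). Its relatives Flrt2 (log2 0.06 ± 0.10) and Flrt3 (0.17 ± 0.15) did not pass, at edgeR adjusted p of 0.969 and 0.932. The median over the 6 was 0.05.

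The adaptors and transducers that carry the signal inward had 0 of 38 tested members called by edgeR and 0 at an unadjusted p under 0.05, with fold changes between log2 -0.15 and 0.21 and a median of 0.01. Limma-voom gave the same counts, and DESeq2 called 0 of 40, with 1 at an unadjusted p under 0.05. The range leaves out Gab1 and Shc3, which edgeR did not test. Gab1 stood at 0.103 ± 0.0818 CPM in the controls and 0.353 ± 0.211 CPM with Zac1 (SD), from 14 and 57 counts. Shc3 stood at 0.205 ± 0.106 and 0.280 ± 0.111 CPM. The 3 with the smallest p were the kinase Akt1 (log2 0.12 ± 0.07), the kinase Araf (-0.09 ± 0.06) and the Ras exchange factor Sos2 (0.09 ± 0.06). Feedback inhibitors had 1 of 19 called, a median of 0.04 and a highest log2 fold change of 0.47. That gene was Lrig1, a membrane protein that promotes the breakdown of ErbB receptors. It had 4.65, 5.54, 5.15 and 4.58 CPM in control libraries 1, 2, 3 and 5 and 7.22, 6.81, 6.39 and 7.29 CPM with Zac1. It rose from a mean of 4.98 ± 0.452 to 6.93 ± 0.417 CPM (SD, n = 4; log2 0.47 ± 0.10, SE; edgeR adjusted p = 0.0213). The call was lost without control library 1 or 5, without Zac1 library 1 or 2, and without both libraries numbered 5 (edgeR adjusted p = 0.0693, 0.0581, 0.0683, 0.0561 and 0.0745). Spry4, a Sprouty inhibitor of Ras signalling, stood at 13.8 ± 0.867 CPM in the controls and 16.6 ± 1.45 CPM with Zac1 (log2 0.27 ± 0.08, edgeR adjusted p = 0.175), and Spred1 had a log2 fold change of 0.16 ± 0.08.

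Transcription factors and early genes that these pathways are known to induce had 0 of 14 tested members called by edgeR. Their median log2 fold change was 0.20, against -0.01 over all tested genes. Of the 14, 4 had an unadjusted p under 0.05 in edgeR, against 7.58% of all tested genes. DESeq2 and limma-voom each called 1 member of this list, Ccnd1. Etv4, an ETS factor induced by FGF signals, stood at 1.68 ± 0.321 CPM in the controls and 2.37 ± 0.112 CPM with Zac1 (log2 0.50 ± 0.16, SE; edgeR adjusted p = 0.238), and Fos at 10.4 ± 1.42 and 12.8 ± 1.11 CPM (log2 0.31 ± 0.10, edgeR adjusted p = 0.244). Without control library 3, Fos was called at a log2 of 0.41 ± 0.09 (edgeR adjusted p = 0.0436). Ccnd1, cyclin D1, had 3, 2, 8 and 0 counts in control libraries 1, 2, 3 and 5 and 20, 12, 14 and 31 counts with Zac1, and it missed the threshold in edgeR (log2 2.23 ± 0.55, edgeR adjusted p = 0.0541). It passed the filter through the Zac1 libraries alone, and its call depended on the settings. It was called by DESeq2 and limma-voom (adjusted p = 0.026 and 0.0464), and by edgeR with no filter or with unscaled library totals (edgeR adjusted p = 0.0229 and 0.0418). Without control library 3, its highest control, it was called at a log2 of 3.17 ± 0.62 (edgeR adjusted p = 0.0162). Leaving out any other library gave no call (edgeR adjusted p of 0.063 to 0.196). Without both libraries numbered 5 its log2 fold change was 1.57 ± 0.50, also not called (edgeR adjusted p = 0.186). Over all these lists together, 2 of 93 tested pathway genes other than the receptors were called, a share of 2.15%, against 2.18% of all tested genes. Leaving out 1 library moved this count between 1 and 4.

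**Figure D5:**
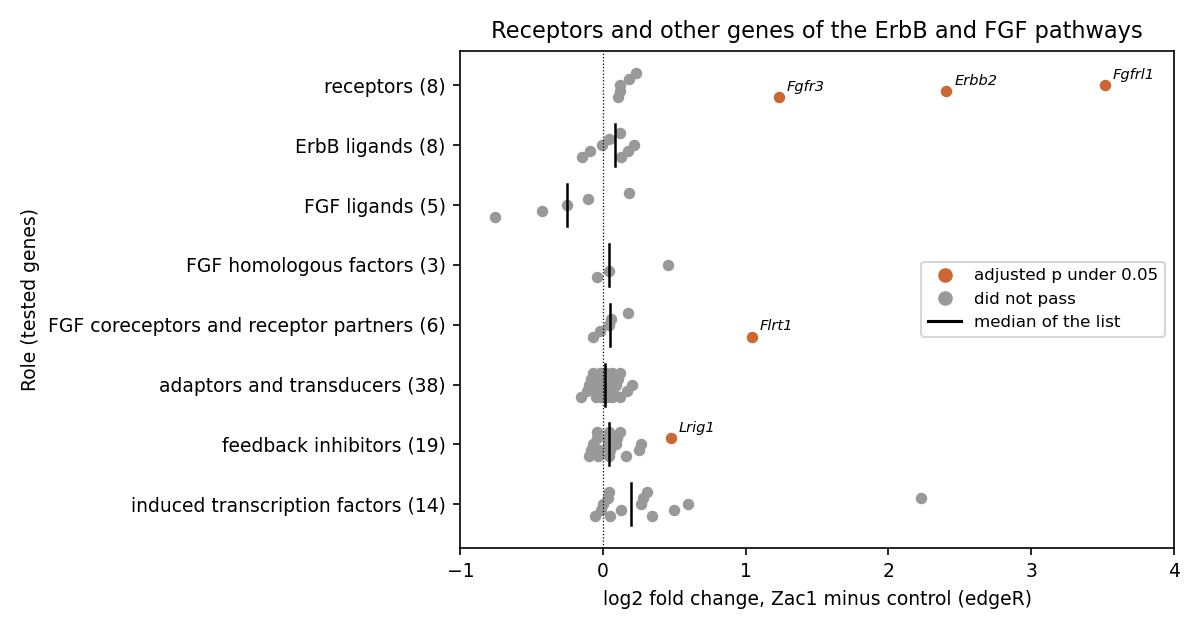
Fitted log2 fold change (Zac1 minus control, edgeR) of each tested receptor and of the tested genes of 7 other pathway lists, with the number tested in parentheses, called genes in orange and named, and a bar at each list's median (not drawn for the receptors). Outside the receptors Flrt1 at 1.04 and Lrig1 at 0.47 are the called genes, and Ccnd1 at 2.23 is the grey point farthest to the right.

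The genes beside the 3 called receptors were compared as well. Next to Erbb2, Pgap3 (log2 -0.12 ± 0.11, SE), 1810046J19Rik, which RefSeq lists as Mien1 (0.01 ± 0.06), and the adaptor gene Grb7 (-0.01 ± 0.11) did not pass, at edgeR adjusted p of 0.934, 0.993 and 0.995. Pnmt, the enzyme that makes adrenaline, was too low to be tested, with 1 count over the controls and 38 over the Zac1 libraries (ratio 31.1, counting interval 5.26 to 1260). Next to Fgfr3, none of Tacc3 (log2 -0.05 ± 0.07), Tmem129 (-0.03 ± 0.05), Letm1 (-0.06 ± 0.05) and Whsc1 (0.08 ± 0.05) passed. Next to Fgfrl1, the sulfate transporter gene Slc26a1 had 0.237 ± 0.0590 CPM in the controls and 0.556 ± 0.142 CPM with Zac1 (log2 1.21 ± 0.32, edgeR adjusted p = 0.0724). Idua was at 22.0 ± 1.17 and 22.6 ± 1.24 CPM (log2 0.04 ± 0.07), and both genes on the other side, 1700047L14Rik and Tmed11, had 0 counts in all 8 libraries.

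The genes most like each called receptor over the 8 libraries were found by Pearson's r of log2 CPM with 0.1 CPM added, among tested genes that averaged at least 50 counts. For Erbb2 they were Mex3a (r = 0.994), Rab11fip4 (r = 0.992) and Clmn (r = 0.99). For Fgfr3 they were Mag (r = 0.979), Hr (r = 0.978) and Ppl (r = 0.977). Mag, a myelin gene that was not on the list of glia markers, had a mean of 0.0305 CPM in the controls and 3.90 CPM with Zac1. Its log2 fold change was 6.85 (edgeR adjusted p = 1.45e-09), and a control level this low leaves the size of the change imprecise. For Fgfrl1 they were Col9a2 and Jag1 (r = 0.987 each) and Plagl1 itself (r = 0.986). All of these points share 2 groups of 4 libraries, so the values mostly reflect the difference between the groups and are given as a description.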

How the data were processed

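mRNA of Min6 cells was sequenced from stranded libraries, 4 per group. The authors deposited a table of raw read counts of 23100 genes. Its tools were HTSeq 0.6.1p1, TopHat2 2.1.1 with Bowtie2 2.2.8, bcl2fastq 2.17 and FastQC, on build mm9, per the submitters' processing notes. Annotation and strand setting of the counting: not given in the sources used here.

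From the deposited counts, edgeR 4.0.16 in R 4.3.3 was run over all genes kept by filterByExpr (14331), with TMM scaling, a robust quasi-likelihood fit of the group and Benjamini-Hochberg adjustment at 0.05; a called gene passed it. SE and 95% intervals follow from each fold change and the F statistic of its test. For Erbb2 and Fgfrl1, with few control counts, these intervals are narrower than counting error alone gives. Shares were compared by exact permutation over 70 assignments. The steps were tested on simulated counts. Alternatives were DESeq2 1.42.0, limma-voom (limma 3.58.1), other scalings and filters, a replicate block and leaving out libraries. No 2 libraries of a group were copies of each other (chi-square over degrees of freedom, 8.906 to 29.84).

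Besides the receptors, the genes named were Plagl1, each called member and the 3 smallest p of each pathway list, the 2 nearest genes in the table on each side of a called receptor, and the 3 most alike. The receptors, the lists and this rule were chosen with earlier results of these data known. Some pathway genes that edgeR did not test are also named, by their counts or levels. Promoters are from RefSeq on GRCm38.p6 (7 of 9 receptors matched by gene ID).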

Additional observations from a re-analysis of the deposited data

Results flagged for a closer look

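Fgfr3 in control library 5 stood at 1.37 CPM, apart from the next control library at 1.11 CPM. The gap is 0.867 of the range of the 4 control libraries, above Dixon's 95% critical value for a group of 4. Chance alone flags about 1 in 20 groups, and 1 of the groups examined for the 9 receptors and the 2 shares was flagged. Without this library the log2 fold change of Fgfr3 was 1.33 and still past the threshold (edgeR adjusted p = 0.000339).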

How the results depend on the processing

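The calls of Erbb2, Fgfr3 and Fgfrl1 held under each alternative in which the gene was tested, with log2 fold changes of 2.26 to 2.63, 1.16 to 1.35 and 3.27 to 3.86. When only genes averaging at least 50 counts were kept, 1 receptor was called, Fgfr3, because Erbb2 and Fgfrl1 were not tested there; all genes called then numbered 99. The receptors called numbered 3 without any 1 library. Genes called numbered 262 to 362 and pathway genes 1 to 4 without 1 library, and 1 pathway gene was called without both libraries numbered 5. Without those libraries the shares differed by 0.858 points for Erbb2 and 2.36 for Fgfr3, each with an exact permutation p = 0.1, the smallest that 3 against 3 allow. Same-numbered libraries deviated together unevenly (r = 0.481, 0.0709, 0.318 and 0.528). Every Zac1 library correlated best with the control library of its own number. The control libraries did so too, except that control library 2 correlated best with Zac1 library 3. The main fit did not take the numbers as pairs. With the replicate block 628 genes were called, 512 higher and 116 lower, with 3 receptors and 5 pathway genes (the cause was not tested). The 5 were Flrt1, Lrig1, Ccnd1, Spry4 and Fos, of which the last 3 had missed the threshold without it (blocked edgeR adjusted p = 0.0127, 0.014 and 0.0182). Egfr did not pass with the block either, at a log2 of 0.12 ± 0.04 (SE; blocked edgeR adjusted p = 0.108), against 0.12 ± 0.09 without it. Sign flips within numbers gave the same 0.855 and 2.12 points at an exact p = 0.125, the smallest possible. Per kb the share differences were 1.77 and 2.42 points. Erbb2, Fgfrl1 and Erbb4 had few counts, which limits their precision.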
